A study of Homo sapiens with 15 samples.

Results

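The genes described here are 5 transcription factors that act in the Golgi stress response, CREB3, CREB3L1, CREB3L2, TFE3 and TFEB, together with ARF4, a small GTPase of the Golgi. They were taken by symbol from the deposited expression table. All 6 were found among its 59608 genes, and all 6 were among the 13561 genes with a mean normalized count of at least 10, which were tested. The rule that lists them uses no measured value, but they were chosen with earlier results of these data known. RNA came from MDA-MB-231, a human triple-negative breast cancer cell line with mesenchymal features, grown in 2D culture. The cells were exposed for 6 h either to DMSO vehicle or to ZJ-101, a synthetic compound made as a simpler version of superstolide A, which comes from a marine sponge, at 0.5, 5, 50 or 500 nM. Each of the 5 groups had 3 biological replicates, 15 libraries in all, and the groups carried no other genotype or treatment. The comparisons ask whether the genes that run the Golgi stress response moved at the level of mRNA, and at which dose.

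The Golgi stress response raises the capacity of the Golgi when cargo traffic, glycosylation or Golgi structure is disturbed. In its CREB3 arm, CREB3 is held in the endoplasmic reticulum (ER) membrane, moves to the Golgi under stress and is cut there by the site-1 and site-2 proteases, and the freed bZIP fragment enters the nucleus and turns on ARF4. CREB3L1 (OASIS) and CREB3L2 (BBF2H7) are activated by the same kind of cleavage and drive genes of collagen synthesis and of the COPII coat, which carries cargo out of the ER. In the TFE3 arm, dephosphorylated TFE3 enters the nucleus and binds the Golgi stress element of genes for Golgi structure and glycosylation. TFEB, of the same MiT/TFE family, does this for lysosome and autophagy genes through the CLEAR element. All of these factors are controlled to a large part after translation, which mRNA levels do not show.

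The genes lie on 6 chromosomes of GRCh38, as annotated by GENCODE release 44. CREB3 (ENSG00000107175.12) spans chr9:35732598-35736999 on the plus strand, CREB3L1 (ENSG00000157613.11) spans chr11:46277662-46321409 on the plus strand, and CREB3L2 (ENSG00000182158.16) spans chr7:137874979-138002086 on the minus strand. ARF4 (ENSG00000168374.11) spans chr3:57571363-57598220, TFE3 (ENSG00000068323.17) chrX:49028726-49043410, and TFEB (ENSG00000112561.19) chr6:41683978-41736259, all on the minus strand. Exons of another gene on the opposite strand covered 18.5% of the exon bases of ARF4 (ARF4-AS1), 8.20% of those of CREB3 (GBA2) and 1.71% of those of TFEB. The strand setting of the read counting is not given in the sources used here, so reads from these shared bases cannot be told apart. ARF4-AS1 itself held at most 2.13 normalized counts in any library.

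RefSeq promoter windows were at hand for 5 of the 6 genes, in 8 windows of 250 bases before an annotated start, and all 8 were identical to the hg38 sequence. ARF4 had no entry. The windows were searched on both strands for ACGTGGC (the Golgi stress element bound by TFE3), CACGTG (the core of the CLEAR element), TGACGTCA (the cAMP response element, bound by bZIP factors) and TGACGTG (a variant of it). These letters share ACGTG or TGACGT, so that 1 stretch may count for several of them. Stretches of CREB3 and CREB3L2 are shown because they hold the only matches. Each line gives the bases of the window that lie outside any annotated exon, 5' to 3' on the gene's own strand, with matches in capitals. The CREB3L2 stretch is chr7:138002087-138002323 (minus) and the CREB3 stretch chr9:35732416-35732597 (plus), both on GRCh38.p14.
CREB3L2: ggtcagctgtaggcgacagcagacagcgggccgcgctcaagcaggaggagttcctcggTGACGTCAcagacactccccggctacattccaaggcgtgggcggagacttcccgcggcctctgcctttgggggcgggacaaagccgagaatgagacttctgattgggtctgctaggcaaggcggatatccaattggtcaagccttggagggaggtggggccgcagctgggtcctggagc
CREB3: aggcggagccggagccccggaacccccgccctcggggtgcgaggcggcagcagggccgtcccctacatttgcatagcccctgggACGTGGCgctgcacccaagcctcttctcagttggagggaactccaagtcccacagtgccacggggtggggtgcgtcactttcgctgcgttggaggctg
The window of CREB3L2 held TGACGTCA with its first base 179 bases before the start, and that of CREB3 held ACGTGGC with its first base 166 bases before the start. Among all 35116 promoter windows of the table, 1.65% held TGACGTCA and 2.78% held ACGTGGC. The other 2 motifs, CACGTG in 6.34% and TGACGTG in 1.68% of all windows, matched none of the 8. No match was found in a second window of CREB3L2, the window of TFE3, the 3 windows of TFEB or the window of CREB3L1. That of CREB3L1, chr11:46294909-46295158, lies inside the gene as annotated by GENCODE, before an internal start, so the bases before the gene's own first base were not searched. The second window of CREB3L2 and the windows of TFEB also lie inside their genes. The GC content of the windows from which these stretches come was 62.4% for CREB3L2 and 68.8% for CREB3. These matches describe letters and were not tested as binding sites.

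The libraries held 12415519 to 15284762 reads on genes (median 13320354). The level given below is the normalized count, which is the authors' read count divided by a DESeq2 size factor. The chi-square per degree of freedom between 2 libraries of a group, which is 1 when they differ by sampling noise alone, lay between 1.96 and 15.1. Replicate 2 at 0.5 nM stood apart, with 10.2 and 15.1 to the other libraries of its group. Results of the 6 genes at 0.5 nM are therefore given with and without it. Markers of the cell line were present, with means over all libraries of 14566 normalized counts for VIM, 13212 for AXL and 10852 for CD44, while the estrogen receptor gene ESR1 held at most 4.30. Of 5 markers present in the line, 1 was higher and 2 were lower than in DMSO at 500 nM, with values given beside CREB3L1. The immune marker CD3E was listed at 0 in every library and PTPRC averaged 1.43, and of the endothelial markers VWF averaged 0.665 but PECAM1 250.8. The epithelial genes CDH1, EPCAM and GATA3, which are low or absent in such a line, were read at means of 147, 290.5 and 145, and CDH1 differed between the groups, with values given beside CREB3L1.

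CREB3L1 mRNA was lower than in DMSO at every dose of ZJ-101, and ARF4 mRNA was lower at 500 nM. The other 4 genes did not pass the test at any single dose, although TFEB fell with rising dose when all groups were read as a series. At 500 nM, CREB3L1 fell by 29.2% and ARF4 fell by 12.6%. The test was limma on log2(normalized count + 1) over all 13561 genes, adjusted by the method of Benjamini and Hochberg. Genes under an adjusted p of 0.05 are called past the threshold, and every fold change is on that scale. Of the 6 genes, 1 passed at 0.5 nM, 1 at 5 nM, 1 at 50 nM and 2 at 500 nM. Among all tested genes, 1.17%, 2.18%, 6.00% and 17.8% passed at these doses. The libraries of 1, 3, 3 and 3 of the 6 genes did not overlap those of DMSO, as for 18.1%, 23.2%, 24.8% and 38.5% of all tested genes. The 4 comparisons share the same DMSO libraries and are not independent of each other.

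**Figure D1:**
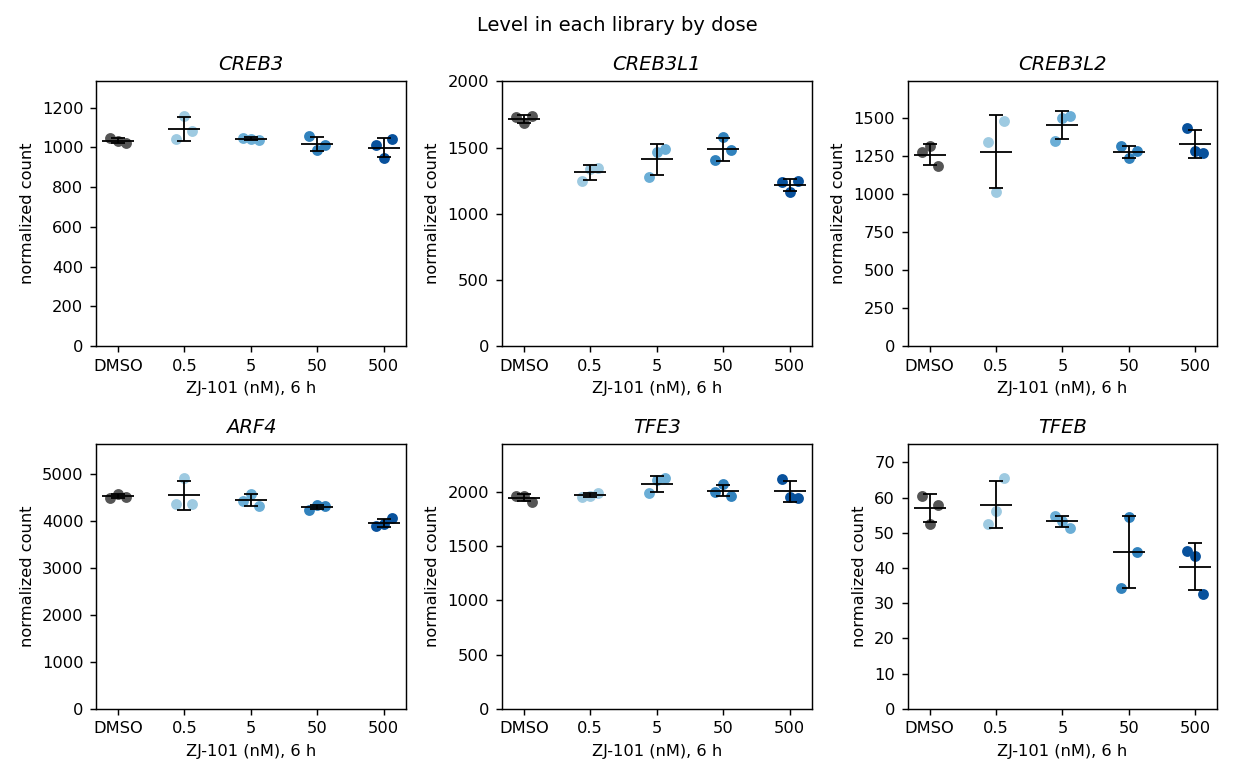
Normalized count of each gene (vertical axes, from 0) in each library at 6 h, by ZJ-101 dose in nM (horizontal axes). Points are libraries, and the black bars give the mean and SD of 3 libraries. CREB3L1 lay below all DMSO libraries at every dose, ARF4 lay below DMSO at 50 and 500 nM and TFEB at 500 nM, and CREB3 overlapped DMSO throughout.

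CREB3L1 had the smallest p of the 6 genes at every dose. In bulk RNA, fewer cells that express a gene and less RNA per cell cannot be told apart, which holds for this and every later result. Its normalized counts were 1730, 1681 and 1741 in DMSO, and 1250, 1341 and 1345 at 0.5 nM. They were 1279, 1467 and 1485 at 5 nM, then 1407, 1576 and 1477 at 50 nM. At 500 nM they were 1238, 1165 and 1244. All 12 treated libraries lay below the lowest DMSO library, and the highest of them was replicate 2 at 50 nM. The group mean went from 1717 ± 31.7 (SD, n = 3) in DMSO to 1312 ± 53.8 at 0.5 nM, 1410.4 ± 115 at 5 nM, 1487 ± 85.2 at 50 nM and 1216 ± 44.1 at 500 nM.

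At 0.5 nM the log2 fold change of CREB3L1 was -0.39 (SE 0.0587), with an adjusted p of 0.0034 by limma with Benjamini-Hochberg adjustment. Without the 0.5 nM library that stood apart it was -0.41, with an adjusted p of 0.0029. The change was -0.29 at 5 nM (adjusted p = 0.013), -0.21 at 50 nM (adjusted p = 0.04) and -0.50 at 500 nM (adjusted p = 5.3e-06). The calls at 0.5 and 500 nM were kept with each of the 15 libraries left out in turn, with adjusted p of at most 0.031 and 8.4e-05. That at 5 nM was lost without DMSO replicate 1 (-0.28, adjusted p = 0.069), DMSO replicate 3 (-0.28, 0.063) or 5 nM replicate 1 (-0.22, 0.081). That at 50 nM was lost in 7 of these 15 fits, those without any one DMSO library, 50 nM replicates 1 or 3 or 500 nM replicates 1 or 3, with a log2 fold change of -0.17 and an adjusted p of 0.2 without 50 nM replicate 1.

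The order of the doses was not the order of the levels for CREB3L1. The group means rose from 0.5 to 5 to 50 nM and then dropped at 500 nM. Between neighbouring doses, the steps from 0.5 to 5 nM (log2 0.10, adjusted p = 0.69) and from 5 to 50 nM (log2 0.08, adjusted p = 0.55) did not pass. The step from 50 to 500 nM did, at log2 -0.29 (adjusted p = 0.011), although not without 50 nM replicate 2 (-0.25, adjusted p = 0.081) or 500 nM replicate 2 (-0.26, adjusted p = 0.071). A contrast of 50 with 0.5 nM, chosen after these values were seen, gave a log2 difference of 0.18 (95% confidence interval 0.06 to 0.30). Its libraries did not overlap, as for 21.7% of all tested genes, but the adjusted p of 0.069 missed the threshold, which 8.12% of all tested genes passed in that contrast. It passed only without 5 nM replicate 1 (adjusted p = 0.038). CREB3L1 was the only 1 of the 6 genes that passed in a step between neighbouring doses, where 0.118%, 5.01% and 2.28% of all tested genes passed from 0.5 to 5, 5 to 50 and 50 to 500 nM.

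Markers that are low in this line and markers that are present in it both differed from DMSO. An epithelial marker was lower at 3 of the 4 doses and, like CREB3L1, had its highest treated mean at 50 nM. CDH1 (E-cadherin) had means of 195.8 normalized counts in DMSO, 113 at 0.5 nM, 125 at 5 nM, 168 at 50 nM and 135 at 500 nM, and its libraries lay below all DMSO libraries at 0.5, 5 and 500 nM. Against DMSO, the 4 doses from low to high gave CDH1 log2 differences of -0.79, -0.66, -0.24 and -0.54 (limma adjusted p = 0.012, 0.019, 0.44 and 0.012). Of the 5 genes read as low or absent in this line, CDH1, EPCAM, GATA3, ESR1 and PGR, 4 were tested and CDH1 was the only 1 past the threshold at any dose. GATA3 lay above all DMSO libraries at 50 and 500 nM (log2 0.14 and 0.12, limma adjusted p = 0.48 and 0.41). The summed level of the 5 was 636.1 to 665.0 in DMSO, 532.6 to 549.3 at 0.5 nM, 556.2 to 588.2 at 5 nM, 613.5 to 690.9 at 50 nM and 566.7 to 613.8 at 500 nM. Of 5 genes present in the line, 2 were lower and 1 higher at 500 nM by limma, CD44 (log2 -0.38, adjusted p = 1.4e-06), S100A4 (-0.41, 0.0022) and AXL (0.22, 0.00059). At 0.5, 5 and 50 nM S100A4 had log2 differences of -0.32, -0.30 and -0.10 (adjusted p = 0.086, 0.08 and 0.63). The present genes summed to 43606.8 to 44483.3 in DMSO and 42008.7 to 42360.6 at 500 nM. The part of cell state or cell mixture in the result of CREB3L1 was not tested.

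The related factors CREB3 and CREB3L2 did not pass the test at any dose. CREB3, the factor that directly activates ARF4, held 1046, 1030 and 1022 normalized counts in DMSO and 1040, 1159 and 1082 at 0.5 nM. It held 1049, 1044 and 1035 at 5 nM, 1055, 985 and 1013 at 50 nM, and 1010.0, 947 and 1040 at 500 nM. The groups overlapped at every dose. The 95% confidence interval of its log2 fold change was -0.02 to 0.19 at 0.5 nM and -0.15 to 0.06 at 500 nM, so that a fall of the size seen in CREB3L1 at 500 nM lay outside it. At 0.5 nM the log2 fold change was 0.08 with the replicate that stood apart, the highest CREB3 library of all, and 0.04 without it (adjusted p = 0.48 and 0.81).

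CREB3L2 held 1275, 1317 and 1182 normalized counts in DMSO and 1342, 1012 and 1482 at 0.5 nM. The lowest of all 15 libraries, 1012, was the 0.5 nM replicate that stood apart, and the log2 fold change at 0.5 nM was 0.01 with it and 0.17 without it (adjusted p = 0.99 and 0.27). At 5 nM CREB3L2 held 1349, 1503 and 1516, all above DMSO. It held 1318, 1240.0 and 1281 at 50 nM and 1434, 1280.4 and 1273 at 500 nM, both overlapping DMSO. The log2 fold change at 5 nM was 0.21 (95% confidence interval 0.01 to 0.41, adjusted p = 0.37). It passed in the fit without 0.5 nM replicate 2 (adjusted p = 0.043) and in the fit of the 6 libraries at 5 nM and DMSO alone (adjusted p = 0.023). At 500 nM its interval ran from -0.13 to 0.28.

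Within each library, CREB3L1 was set against its relatives, with the pairs chosen after the values were seen. The log2 ratio of CREB3L1 to CREB3 was 0.73 ± 0.032 in the 3 DMSO libraries and 0.38 ± 0.146 in the 12 treated libraries, and all 12 lay below DMSO. The log2 ratio of CREB3L1 to CREB3L2 was 0.45 ± 0.104 in DMSO and 0.02 ± 0.198 in treated libraries, 11 of 12 below DMSO. These ratios restate the levels above and are a description, with no test.

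ARF4, an ADP-ribosylation factor that recruits coats and tethers to Golgi membranes, is the target through which the CREB3 arm is usually read. It held 4497, 4592 and 4528 normalized counts in DMSO, and 4375, 4917 and 4372 at 0.5 nM. It held 4436, 4581 and 4325 at 5 nM and 4250, 4344 and 4319 at 50 nM. At 500 nM it held 3894, 3945 and 4067. The libraries at 500 nM were below those of every other group, and those at 50 nM lay below all DMSO libraries. The groups at 0.5 and 5 nM overlapped DMSO.

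The mean of ARF4 was 4539 ± 48.2 in DMSO and 3969 ± 88.8 at 500 nM, a log2 fold change of -0.19 (SE 0.0449, limma adjusted p = 0.0048). The call was kept with each library left out, with log2 fold changes between -0.21 and -0.18 and adjusted p of at most 0.026. At 50 nM the log2 fold change was -0.08 (adjusted p = 0.42), and from 50 to 500 nM it was -0.12 (adjusted p = 0.25). The latter passed only without 0.5 nM replicate 2 (adjusted p = 0.047). At 0.5 nM it was 0.00 with that replicate, the highest ARF4 library of all, and -0.05 without it, with adjusted p of 0.99 and 0.6. ARF4 mRNA did not pass the test upward in any comparison.

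The MiT/TFE factors differed in level and in spread. TFE3, the factor of the Golgi stress element, held 1962, 1966 and 1911 normalized counts in DMSO and 1956, 1960.3 and 1989.95 at 0.5 nM. It held 1989.9, 2113 and 2126 at 5 nM, 2001, 2069.5 and 1967 at 50 nM, and 2119, 1958 and 1947 at 500 nM. All libraries at 5 and 50 nM were above DMSO, by a small margin at 50 nM, and those at 0.5 and 500 nM overlapped it. The log2 fold change was 0.02 at 0.5 nM both with and without replicate 2 (adjusted p = 0.92 in both), 0.09 at 5 nM (adjusted p = 0.38), 0.05 at 50 nM (adjusted p = 0.66) and 0.04 at 500 nM (95% confidence interval -0.05 to 0.14, adjusted p = 0.57).

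TFEB, the main driver of lysosome genes, was read at a low level. It held 60.5, 52.6 and 57.8 normalized counts in DMSO, 52.5, 56.1 and 65.5 at 0.5 nM and 54.7, 53.5 and 51.5 at 5 nM. It held 34.4, 54.6 and 44.7 at 50 nM and 44.8, 43.5 and 32.7 at 500 nM. Only the 500 nM group lay wholly below DMSO. At 0.5 nM the log2 fold change was 0.02 with replicate 2 and 0.04 without it (adjusted p = 0.98 and 0.97). The mean went from 57.0 ± 4.03 to 40.3 ± 6.67, and the log2 fold change at 500 nM was -0.50 with a 95% confidence interval of -0.87 to -0.13. The unadjusted p was 0.0104 and the adjusted p 0.056, just short of the threshold. It passed without 50 nM replicate 1 or replicate 2 (adjusted p = 0.036 and 0.04). With 32 to 67 TFEB reads per library, counting error alone is large beside that of the other genes.

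**Figure D2:**
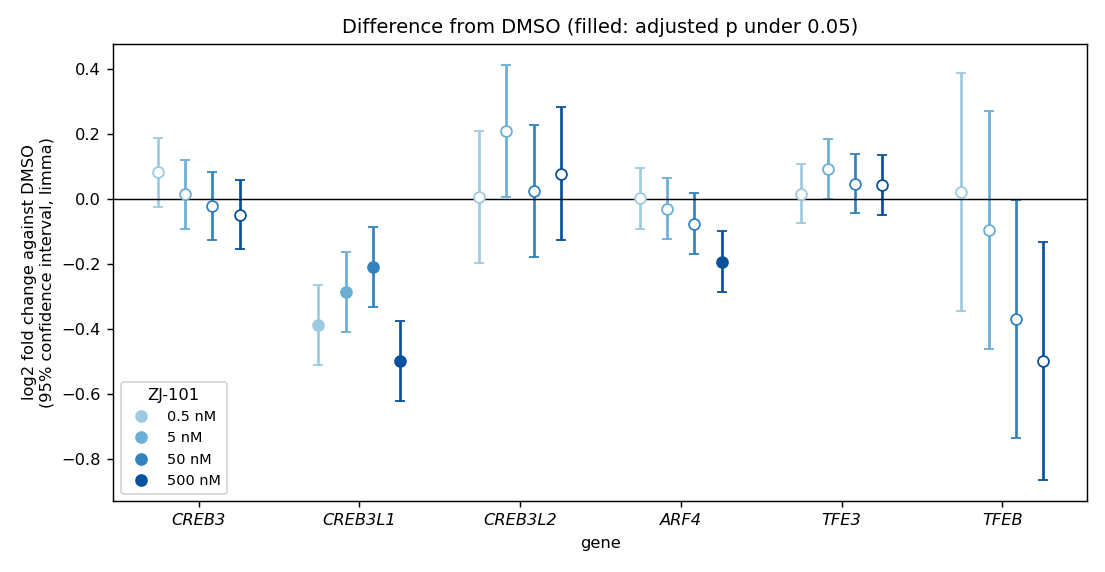
Log2 fold change of each gene (horizontal axis) against DMSO at 4 doses (shades of blue), with 95% confidence intervals from limma. Filled points passed an adjusted p of 0.05. CREB3L1 is filled at all 4 doses with its weakest change, -0.21, at 50 nM, ARF4 is filled at 500 nM alone, and the intervals of TFEB are the widest.

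Read as a dose series, 3 of the 6 genes had a slope past the threshold, where 17.6% of all tested genes did. The slope is the log2 change per step of the dose rank, with DMSO at 0 and the doses at 1 to 4. It was -0.05 for ARF4 (adjusted p = 0.005), -0.14 for TFEB (adjusted p = 0.013) and -0.08 for CREB3L1 (adjusted p = 0.018). The slope of ARF4 was past the threshold in every alternative, including the 12 treated libraries alone. That of TFEB was lost without 500 nM replicate 3 (-0.11, adjusted p = 0.061). That of CREB3L1 was lost without any one DMSO library or without 500 nM replicate 2 (adjusted p of 0.054 to 0.07), and over the 12 treated libraries it was -0.03 (adjusted p = 0.62). The fall of CREB3L1 lay between DMSO and the lowest dose and again between 50 and 500 nM, while ARF4 and TFEB went down toward the top of the series. CREB3 (-0.02, adjusted p = 0.29), CREB3L2 (0.02, adjusted p = 0.68) and TFE3 (0.01, adjusted p = 0.49) had no slope past the threshold.

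TFEB and ARF4 were also set against a family member within each library. The log2 ratio of TFEB to TFE3 was -5.07 ± 0.109 in DMSO and -5.36 ± 0.281 in treated libraries, 8 of 12 below DMSO. The log2 ratio of ARF4 to ARF5 was 2.51 ± 0.086 in DMSO and 2.40 ± 0.066 in treated libraries, with 9 of 12 below DMSO. ARF5 itself held 796 ± 56.9 normalized counts in DMSO, 885 ± 60.3 at 0.5 nM, 840.3 ± 44.2 at 5 nM, 801 ± 42.0 at 50 nM and 747 ± 47.1 at 500 nM. At 0.5 and 5 nM the mean of ARF5 was above DMSO while the log2 fold changes of ARF4 were 0.00 and -0.03, so that the lower ratio at these doses came with the level of ARF5, which did not pass at any dose. These ratios too are a description.

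Levels of different genes were compared per kb of the MANE transcript. This length is 1496 bases for CREB3, 2673 for CREB3L1 and 3291 for TFE3, while all annotated exon bases number 1635, 4023 and 4207. The order of these genes depends on the length used. Taken over all exon bases, CREB3L1 would stand below TFE3 in DMSO already. In DMSO, ARF4 stood at 2844 ± 30.2 normalized counts per kb (SD, n = 3), above the 5 factors. CREB3 followed at 690.1 ± 8.11, CREB3L1 at 642.5 ± 11.8 and TFE3 at 591 ± 9.24, whose libraries did not overlap between neighbours in that order. CREB3L2 stood at 169 ± 9.30 and TFEB at 24.4 ± 1.73. By the MANE length, the order of the middle changed at 500 nM. CREB3 was at 668 ± 31.7 and TFE3 at 610.1 ± 29.3, with overlapping libraries, while CREB3L1 had dropped to 455 ± 16.5, below both. The other CREB3-family genes were lower, with CREB3L4 at 35.7 and CREB3L3 at 11.0 per kb in DMSO. Of the MiT/TFE family, MITF stood at 136 and TFEC at 0.152. By the MANE length, ARF4 was the second ARF by level, after ARF1 at 4960.0 and before ARF6 at 1805. This order too depends on the length, which for ARF4 is 1596 bases by MANE and 2595 over all exon bases. In normalized counts not divided by length, ARF6 stood above ARF4, at 6995 against 4539 in DMSO.

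**Figure D3:**
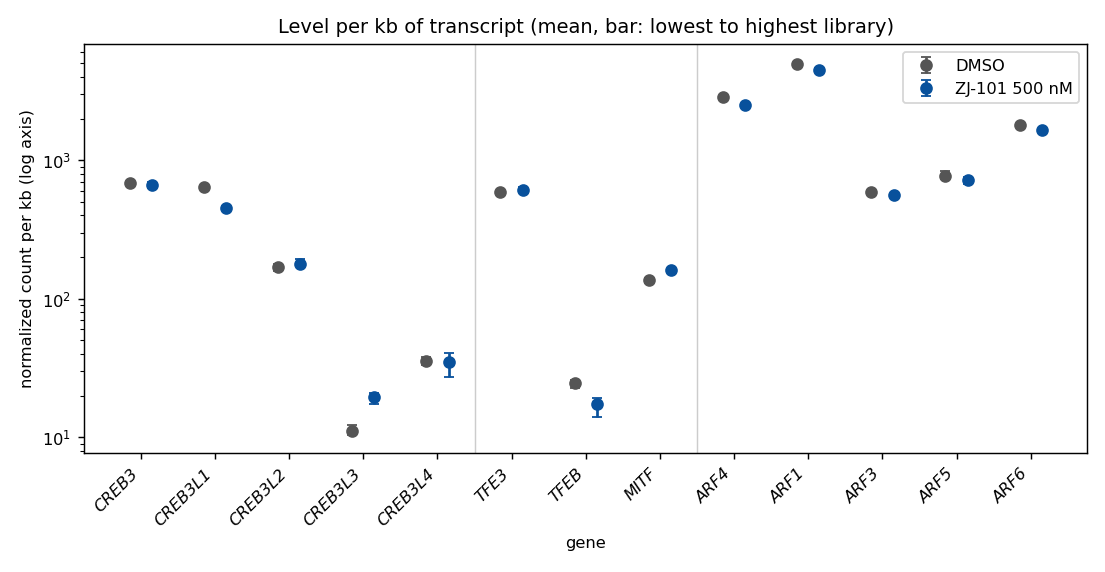
Normalized counts per kb of transcript (log axis) for the CREB3 family, the MiT/TFE factors and the ARF GTPases, separated by grey lines, in DMSO (grey) and 500 nM ZJ-101 (blue). Points are means of 3 libraries and bars run from the lowest to the highest library. By the MANE length used here, CREB3L1 moved from beside CREB3 to below TFE3, and CREB3L3, near the bottom, moved up. The order of genes depends on the length used.

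The genes whose levels followed each changed gene most closely over the 15 libraries are given as a description. For CREB3L1 they were JUP (plakoglobin, a protein of desmosomes and adherens junctions, Pearson r = 0.937), DAZAP2 (r = 0.926) and the glycosyltransferase gene B4GALNT3 (r = 0.911). For ARF4 they were H3-3B, a histone H3.3 gene (r = 0.949), ARL1, a GTPase of the trans-Golgi (r = 0.939), and FKBP1A (r = 0.938). For TFEB they were CTSB, the lysosomal protease cathepsin B (r = 0.916), IER5L (r = 0.905) and RASD1 (r = 0.905). The libraries share doses, so any genes that move with dose give high values.

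Other genes of the pathway were read from 7 lists, with the 6 genes themselves left out. The median log2 fold change of a list at 500 nM lay between -0.28 and -0.04, where the median of all tested genes was 0.00. The lists overlap in 6 genes, such as GOLGA2 and WIPI1.

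Genes listed as targets of the CREB3 family fell for the most part. Of 13 tested, 8 fell, 1 rose and 4 did not pass at 500 nM, with a median of -0.28, while 10.1% of all tested genes fell and 7.69% rose. The largest fall was that of SEC24D, a cargo-binding subunit of the COPII coat, whose counts were 1267, 1225 and 1180 in DMSO and 508, 505 and 552 at 500 nM (log2 -1.23, adjusted p = 1.3e-10). HERPUD1, of ER-associated degradation, fell by 0.66 on the log2 scale, and CDKN1A, the cell cycle inhibitor p21, fell by 0.61. EDEM1, NUCB2, KDELR3, GOLGA2 and SEC23A fell too, with log2 fold changes between -0.56 and -0.27. KDELR3 did not pass without DMSO replicates 1 or 2 or 500 nM replicate 2 (adjusted p up to 0.071). In the same experiment, the paper reports lower expression of target genes of the unfolded protein response, a response to ER stress. Whether the falls in this list came through the CREB3 factors or through that response was not tested.

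MIA3 (TANGO1), which loads collagen into COPII carriers, went the other way. It held 984, 1047 and 1013 normalized counts in DMSO and 1229, 1160 and 1116 at 500 nM (log2 0.20, adjusted p = 0.049). That call was lost without a filter and in 11 of the 15 fits with a library left out (adjusted p up to 0.18). At 50 nM the rise was larger, log2 0.36 with an adjusted p of 0.0022, and was kept in all of these fits. COL1A1, the tested collagen gene of the list, had a log2 fold change of -0.04 (adjusted p = 0.83) at 500 nM. COL1A2, also on the list, had a mean of 3.0 normalized counts over all libraries and was not tested. SEC24D, HERPUD1, CDKN1A, EDEM1, GOLGA2 and SEC23A were already lower at 50 nM. The call of SEC23A there was lost without a filter and without DMSO replicates 1 or 3 or any one 50 nM library (adjusted p up to 0.12). NUCB2, a calcium-binding Golgi protein gene, was the only one of the list past the threshold at 5 nM (log2 -0.22, adjusted p = 0.025). That call was lost without a filter and without any one library of DMSO or of 5 nM (adjusted p up to 0.13). Its mean was 1623 in DMSO, 1452 at 0.5 nM, 1397 at 5 nM, 1482 at 50 nM and 1198 at 500 nM.

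**Figure D4:**
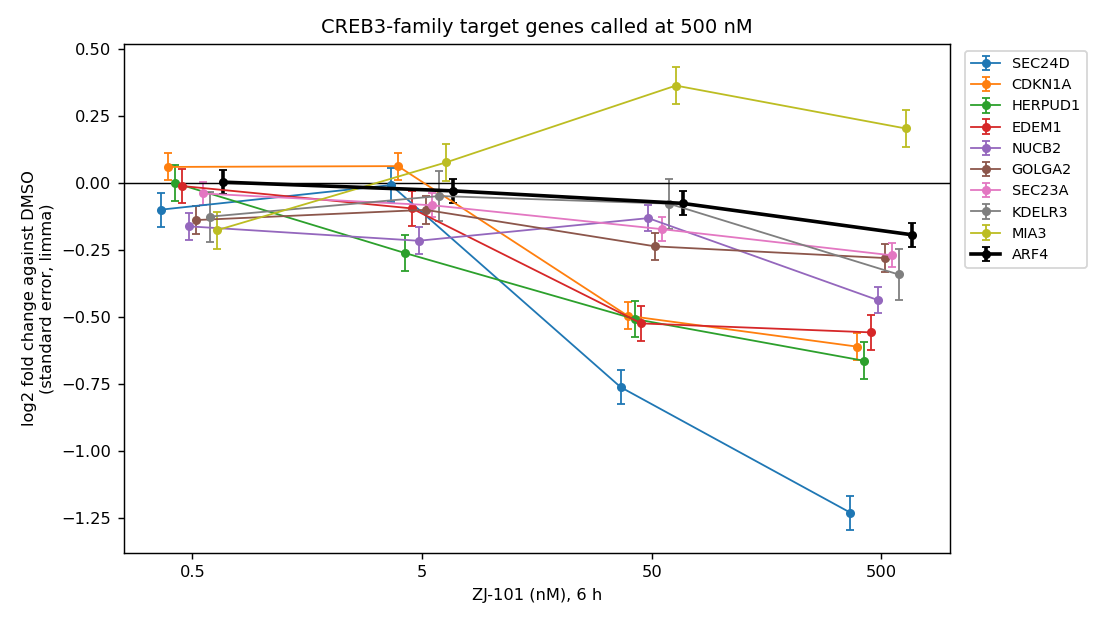
Log2 fold change against DMSO (vertical axis, bars are standard errors from limma) by ZJ-101 dose in nM for the CREB3-family target genes that passed at 500 nM, with ARF4 in black. Points of a dose are shifted sideways for clarity. SEC24D separates from the rest at 50 and 500 nM, MIA3 rises, and ARF4 reaches -0.19 at 500 nM.

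The genes that make and process the CREB3 factors moved in both directions. Of 7 tested besides CREB3, CREB3L1 and CREB3L2, 1 rose and 2 fell at 500 nM (median -0.05), and none passed at a lower dose. Among all tested genes, 7.69% rose and 10.1% fell at 500 nM. MBTPS1, the site-1 protease, fell by 0.22 on the log2 scale (adjusted p = 0.012), except without DMSO replicate 1 (adjusted p = 0.06). MBTPS2, the site-2 protease, had a log2 fold change of 0.16 (adjusted p = 0.084). CREB3L3, a liver and gut member of the family, rose from 28.6 to 50.6 normalized counts (log2 0.80, adjusted p = 0.02). That call was lost without a filter and without DMSO replicates 1 or 2 or 500 nM replicates 1 or 2 (adjusted p up to 0.07). CREBRF, a regulator of the family, had a log2 fold change of -0.36 (adjusted p = 0.045). Its call was lost without a filter, with DESeq2 and in 9 of the 15 fits with a library left out (adjusted p up to 0.15).

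ARF4 was not alone among the ARF genes. Of 11 other ARF GTPases, exchange factors and activating proteins, 4 fell and 0 rose at 500 nM (median -0.07), while 10.1% of all tested genes fell and 7.69% rose. They were ARFGAP3 (log2 -0.34, adjusted p = 0.0023), the ARF-like gene ARL1 (-0.24, 0.00032), ARF1 (-0.15, 0.024) and ARF6 (-0.13, 0.026). The calls of ARF1 and ARF6 were each lost without a filter and in 4 of the 15 fits with a library left out, with adjusted p of up to 0.11 and 0.14. ARF3 and ARF5 had log2 fold changes of -0.07 (adjusted p = 0.31) and -0.09 (adjusted p = 0.41). The exchange factor gene GBF1, which loads ARFs with GTP at the cis-Golgi, was at 0.11 (adjusted p = 0.41).

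Of 17 genes tested for the control of the MiT/TFE factors, 2 rose and 1 fell at 500 nM (median -0.04), a share close to the 17.8% of all tested genes past the threshold there. MCOLN1, a lysosomal calcium channel upstream and downstream of TFEB, went from 344 to 420.1 normalized counts (log2 0.29, adjusted p = 0.0058), and MITF, the sister factor, from 655 to 772 (log2 0.24, adjusted p = 0.0055). RRAGA, a Rag GTPase that holds TFEB and TFE3 at the lysosome, had a log2 fold change of -0.14 (adjusted p = 0.047). Its call was lost in 10 of the 15 fits with a library left out, without a filter, in the fit with replicate number as a block and with edgeR and DESeq2 (adjusted p up to 0.22).

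TFE3 target genes of the Golgi stress response went down where they moved. Of 13 tested, 5 fell, 0 rose and 8 did not pass at 500 nM (median -0.16), while 10.1% of all tested genes fell and 7.69% rose. ACBD3, a Golgi scaffold protein, went from 940 to 669 normalized counts (log2 -0.49, adjusted p = 6e-06) and was lower from 50 nM on. WIPI1, of autophagy, had a log2 fold change of -0.34, RAB20 of -0.29, GOLGA2, the gene of GM130, of -0.28 and UAP1L1 of -0.26. The call of WIPI1 was lost when 500 nM replicate 1 or DMSO replicate 2 was left out (up to 0.063), that of UAP1L1 when replicate 1 of either group was left out (up to 0.087), and that of RAB20 with DESeq2 (0.056).

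CLEAR target genes of TFEB split. Of 20 tested, 3 rose and 6 fell at 500 nM (median -0.16), while 7.69% of all tested genes rose and 10.1% fell. SQSTM1, the autophagy receptor p62, rose by log2 0.29 (adjusted p = 0.0002), beside MCOLN1 and the lysosomal chloride transporter gene CLCN7 (log2 0.23, adjusted p = 0.0028). GLA had a log2 fold change of -0.33 and cathepsin D (CTSD) of -0.29, and WIPI1, CTSB and LAMP1 were among the others that fell, with log2 fold changes between -0.34 and -0.18. CTSD did not pass without DMSO replicate 1 or 500 nM replicates 1 or 2 (adjusted p up to 0.064). CLCN7 changed direction with dose. Its mean was 829 in DMSO, 692 at 0.5 nM and 970.3 at 500 nM, with a log2 fold change of -0.26 at 0.5 nM (adjusted p = 0.015). That call was lost without DMSO replicates 1 or 2 and with only the 2 groups compared (adjusted p up to 0.19), but kept without 0.5 nM replicate 2.

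LAMP1, of the lysosomal membrane, fell at 0.5, 5 and 500 nM and did not pass at 50 nM. Its mean was 4132 in DMSO, 3680.1 at 0.5 nM, 3668 at 5 nM, 4046 at 50 nM and 3642 at 500 nM. The log2 fold changes at 0.5 and 5 nM were -0.17 in both (adjusted p = 0.027 and 0.013). Both were lost without a filter, without DMSO replicates 1 or 2 and without replicate 1 of the dose. That at 0.5 nM was also lost without DMSO replicate 3 and with only the 2 groups compared, but kept without its replicate 2. The adjusted p went up to 0.25 over all alternatives.

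The list of other arms of the Golgi stress response held the largest single change. It covers proteoglycan and mucin synthesis, HSP47 and the transcription factor genes ETS1, ELK1, GABPA and GABPB1. These factor genes did not pass at 500 nM (limma adjusted p of 0.16 to 0.92). Of 15 tested, 6 fell and 1 rose at 500 nM (median -0.16), while 10.1% of all tested genes fell and 7.69% rose. CHPF, which polymerizes chondroitin sulfate, held 911, 863 and 874 normalized counts in DMSO and 256, 269 and 258 at 500 nM (log2 -1.75, adjusted p = 1.9e-11), and was lower from 5 nM on (log2 -0.53, adjusted p = 0.0011). GALNT5, which starts mucin-type O-glycans, fell by 0.67 on the log2 scale and GLCE, of heparan sulfate synthesis, fell by 0.64. CSGALNACT2, of chondroitin chain initiation, rose by log2 0.23. SERPINH1, the gene of HSP47, had a log2 fold change of -0.07 (adjusted p = 0.24).

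**Figure D5:**
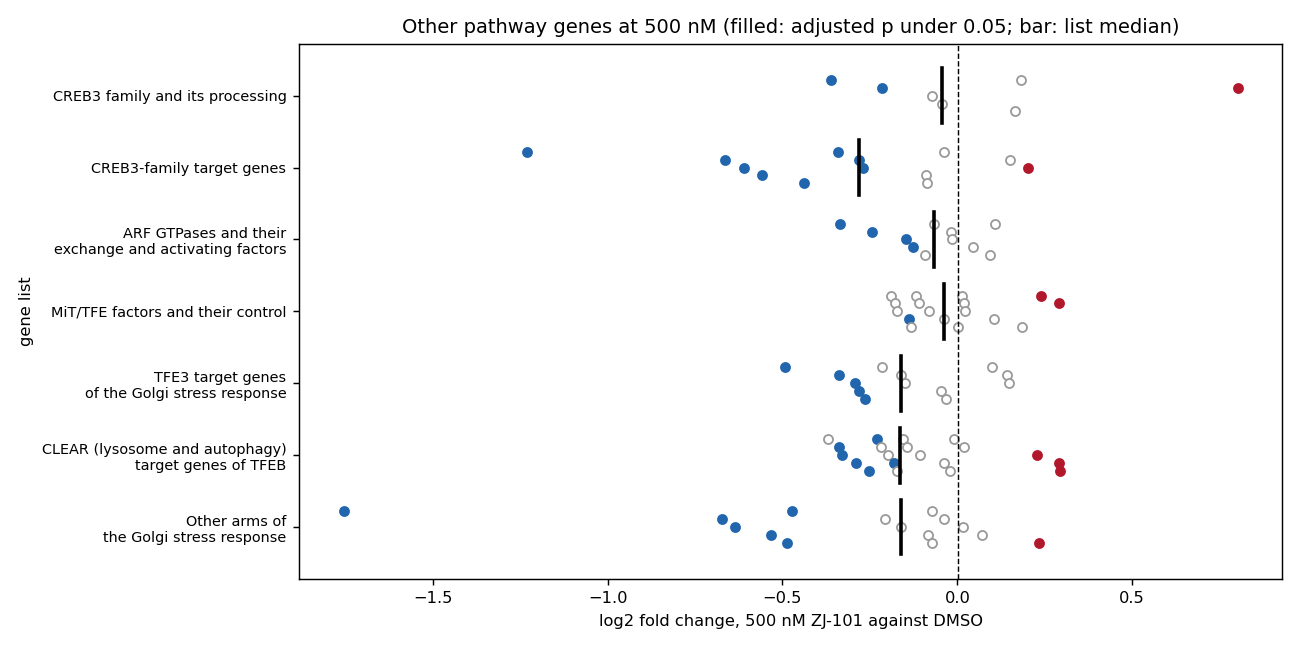
Log2 fold change at 500 nM against DMSO (horizontal axis) of the tested genes of 7 pathway lists without the 6 genes (vertical axis). Filled points passed an adjusted p of 0.05, blue for lower and red for higher, and open grey points did not. Black bars are list medians, between -0.28 and -0.04, and the dashed line is the median of all genes.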

How the data were processed

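Poly-A RNA of 15 libraries was sequenced as paired reads. The authors used Galaxy to align the reads with HISAT2 (hg38) and to count reads per gene with htseq-count, and scaled the counts of each library by a DESeq2 size factor. Strandedness, tool versions and the number of the GENCODE release are not given in the sources used here. The deposited signal values are these normalized counts for 59608 genes, and 1 line without a gene was dropped. The steps of the values gave back whole reads (100.0% whole within 0.001), and size factors recomputed from them with DESeq2 differed by a relative 4.61e-10 at most.

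limma 3.58.1 (R 4.3.3), with a trend of variance on mean, was run on log2(normalized count + 1) for genes with a mean of at least 10. A single fit held the 5 groups, which left 10 residual degrees of freedom, with Benjamini-Hochberg adjustment over 13561 genes. Because the values are not counts, the DESeq2 test of the study was an alternative here, run on the recovered reads. Alternatives were edgeR 4.0.16 and DESeq2 1.42.0, TMM scaling or equal totals, pseudocounts of 0.5 and 5, no filter or a mean of 50, a replicate block, 2 groups alone, the 12 treated libraries alone for the slope, and each library left out. Positions came from GENCODE 44, and minimap2 2.31-r1302 found no transcript or alternate contig covering 50% of a gene's transcript at 95% identity.

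The genes, lists and tests were chosen with earlier results of these data known. Named are all 6 genes, up to 3 rises and 3 falls per list at 500 nM, list genes past the threshold at 0.5 or 5 nM, and the 3 genes closest to each changed gene. Further list genes were named after their values were seen. In the fit of 5 groups, p-values reflect the spread between biological replicates, 3 a group, pooled over all groups and drawn toward the trend of variance on mean. The spread of 0.5 nM replicate 2 thus enters comparisons without that dose. The 24 h spheroid experiment was not analysed here.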

Additional observations from a re-analysis of the deposited data

How the results depend on the processing

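The calls of CREB3L1 at 0.5 and 500 nM, of ARF4 at 500 nM and of the ARF4 slope were kept under every alternative run. No result of the 6 genes past the threshold changed sign. Without a filter, CREB3L1 at 50 nM kept its log2 fold change of -0.21 but lost its call (adjusted p = 0.079), which left 0 genes past the threshold at 50 nM, and the lists of the CREB3 family and of the ARF GTPases had 1 and 2 calls in place of 3 and 4. More genes were tested there. With only the 2 groups compared, CREB3L2 at 5 nM (log2 0.21) passed and the count at 5 nM became 2, the MiT/TFE list had 5 calls in place of 3 and the TFE3 target list 8 in place of 5, while all tested genes past the threshold numbered 849 at 5 nM (295 with all groups) and 21 at 0.5 nM (159 with all groups). DESeq2 called 246 at 0.5 nM. The cause of these shifts was not tested.

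With each library left out, the log2 fold change of CREB3L1 ranged from -0.33 to -0.22 at 5 nM and from -0.25 to -0.17 at 50 nM, that of CREB3L2 at 5 nM from 0.17 to 0.26, and that of TFEB at 500 nM from -0.58 to -0.36. The number of the 6 genes past the threshold ranged from 0 to 2 at 5 nM, 0 to 1 at 50 nM and 0 to 2 from 50 to 500 nM. Calls at 500 nM ranged from 0 to 4 in the CREB3 family list, 2 to 4 in the ARF list and 3 to 7 among TFE3 target genes. Over all tested genes they ranged from 19 to 388 at 0.5 nM, 113 to 623 at 5 nM and 560 to 1277 at 50 nM (814 with all libraries). The lowest counts at 0.5 and 5 nM came without DMSO replicate 1. The highest came without 0.5 nM replicate 3 at 0.5 nM and without 0.5 nM replicate 2 at 5 and 50 nM.

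Libraries with the same replicate number showed no sign of pairing, since none of 30 such pairs had deviations correlated above 0.1 (r from -0.085 to 0.096). Differently numbered pairs were not compared, so this does not settle whether the libraries were paired. The replicate block left 1, 1, 1 and 2 genes past the threshold at the 4 doses and 3 by slope, with ARF4 at -0.19 (adjusted p = 0.0034) and CREB3L1 at -0.50 (adjusted p = 3.9e-06) at 500 nM, and changed no call of the 6 genes. Depth limits TFEB most.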
